A study of Mus musculus with 27 samples.

Results

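Loss of Smarcb1 was examined in thyroid tumor cells that already carry an activated Braf kinase. The comparison set 3 vehicle-treated mouse tumor cell lines labelled Braf(V600E) with Smarcb1 knockout (KO) against 3 vehicle-treated lines labelled Braf(V600E) alone. These 6 libraries were taken by their genotype and treatment labels out of 27 libraries in the series. The Braf lines were B47275, B48051 and B52482, the Smarcb1 KO lines were BS53736, BS53958 and BS53965, and levels of single lines are listed in that order, the latter 3 as KO lines. Every line was grown out of a dissociated mouse tumor and gave 1 vehicle library. The vehicle is given as 40% Trappsol, and the labels also mention bovine TSH, the hormone that drives thyroid cells, in a way that does not settle whether the vehicle arm received it. The promoter and Cre driver of the alleles, the strain, the age of the mice and the number of animals behind the lines were not given in the sources used here, so p-values measure the spread between these lines. Vehicle-treated lines with Braf(V600E) and KO of Arid1a (BA45198, BA47473 and BA49112) or of Arid2 (AB51189, AB52980 and AB55694), 3 each, shared the model fit and served to show where Smarcb1 KO lines differ from other SWI/SNF mutants. In other libraries the same lines had been given CKI (CH5126766), which blocks RAF and MEK, for 8 days at 300 nM.

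SMARCB1 (also BAF47, INI1 or SNF5) is a core subunit of the BAF and PBAF forms of the SWI/SNF complex, which use ATP to move nucleosomes and keep enhancers and promoters accessible. The non-canonical form, ncBAF, is built without it. ARID1A belongs to BAF and ARID2 to PBAF. SMARCB1 is lost in malignant rhabdoid tumors and epithelioid sarcoma, and SWI/SNF mutations accompany the dedifferentiation of thyroid cancers driven by BRAF.

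Total counts per library ranged from 18417255 to 21477216 in the Braf lines and from 20043316 to 23469129 in the Smarcb1 KO lines. Levels are read counts per 1000000 counts (CPM), with library sizes scaled by edgeR's TMM factors. They are not divided by gene length and are compared only within a gene. Differences are log2 values of Smarcb1 KO minus Braf with their approximate standard error (SE), and a gene was called at an adjusted p under 0.05 in edgeR's quasi-likelihood F test. Where 1 group held 3 counts or fewer over its 3 libraries, the ratio of the summed counts is given in place of the model's value, and where it held none, a bound set by 3 counts. Intervals and bounds cover counting error only. The first principal component of log2 CPM in the 12 vehicle lines, with 31.8% of the variance, put the 3 Smarcb1 KO lines apart from every other line. The Braf lines were spread along the second (21.8% of the variance), at scores of -68.6, -91.4 and 8.34. Pearson's r of log2 CPM across genes was 0.915 to 0.942 between Smarcb1 KO lines, 0.876 to 0.928 between Braf lines and 0.805 to 0.853 between lines of different genotype (genes are not independent). Each genotype held 1 line with Xist RNA and no Y-linked RNA (B47275 and BS53965).

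**Figure D1:**
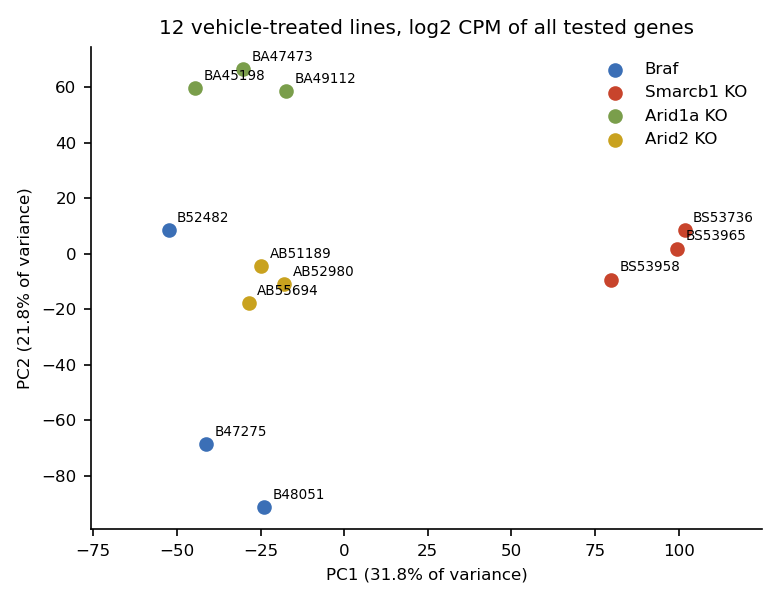
First and second principal components of log2 CPM over all tested genes in the 12 vehicle-treated lines, 1 point per line, coloured by genotype, with the share of variance on each axis. The 3 Smarcb1 KO lines sit at the right, apart from the other 9 lines, and the 3 Braf lines are spread along the vertical axis.

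Of 14317 genes tested, 2364 (16.5%) differed between the genotypes, 964 (6.73%) higher and 1400 (9.78%) lower in Smarcb1 KO. Genes that fell did so by much more than genes that rose, with a median log2 difference of -3.36 against 1.28, while the median over all tested genes was -0.00377. The 3 Smarcb1 KO lines lay wholly above the 3 Braf lines for 2460 genes (17.2%) and wholly below them for 2516 (17.6%). The number of calls fell whichever line was left out. It was 1171 without BS53736, 1281 without BS53965, 1259 without B47275, 1719 without BS53958, 1931 without B48051 and 2085 without B52482, and no called gene changed sign in any of these fits. A set of 472 genes, 170 higher and 302 lower, was called in the reported fit and in all 13 alternatives. Among the named lists, DNA replication genes rose together, and genes of Eph, Wnt, TGF-beta and matrix signalling fell.

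**Figure D2:**
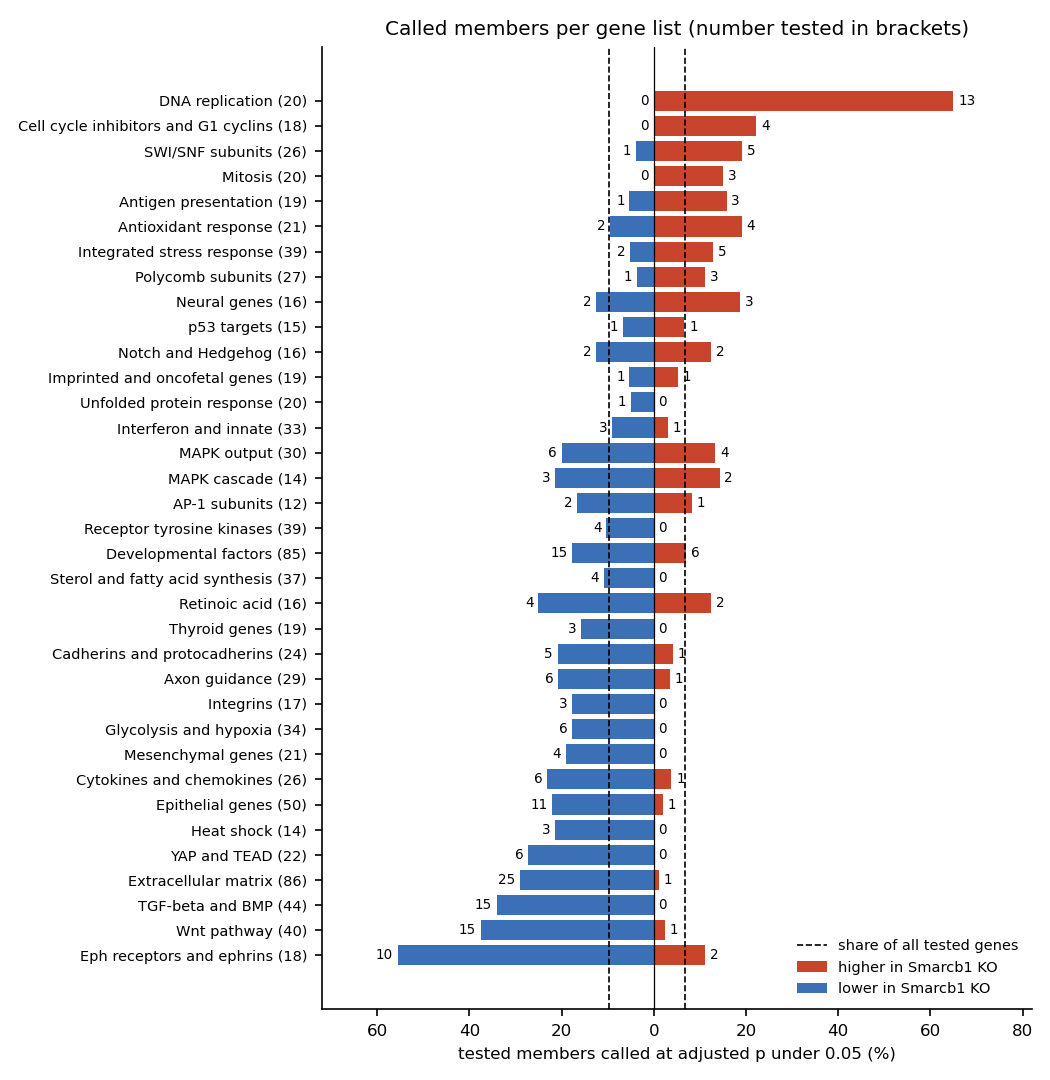
Share of tested members called higher (right, red) or lower (left, blue) in the Smarcb1 KO lines for each gene list with 10 or more tested members, in percent, with the number of called members at the end of each bar. Dashed lines mark the share over all tested genes, 6.73% higher and 9.78% lower, and DNA replication (13 of 20 higher) and Eph receptors and ephrins (10 of 18 lower) stand at the ends.

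Smarcb1 RNA was nearly absent from the lines labelled KO, and transcripts of several partner subunits were higher. Smarcb1 was at 71.8, 84.8 and 67.2 CPM in Braf lines and 0.0467, 1.17 and 0.17 CPM in KO lines (log2 -7.34 ± 0.79, adjusted p = 0.00141). BS53958 kept the most, and the groups did not overlap. Arid1a, the large BAF-specific subunit that contacts DNA, rose from 129, 132 and 135 CPM to 342, 229.9 and 280.4 CPM (log2 1.11 ± 0.18, adjusted p = 0.00674). For the ATPase Smarca4 (BRG1) levels went from 271, 345 and 271 to 494, 527 and 492 CPM (log2 0.77 ± 0.13, adjusted p = 0.00801), and for the actin-related subunit Actl6a from 35.3, 53.9 and 38.6 to 74.1, 74.8 and 82.3 CPM (log2 0.86 ± 0.17, adjusted p = 0.0121). For all 3 genes the lowest KO line was above the highest Braf line. Dpf1 and Smarcd1 also rose, at log2 differences of 2.73 ± 0.63 and 0.63 ± 0.15. In all, 5 of 26 tested subunits rose and 1, Smarcb1 itself, fell. With Smarcb1 counted, 23.1% were called against 16.5% of all genes. None of the 4 PBAF-only and 2 ncBAF-only subunits was called, among them Arid2 at 88.2, 108 and 95.4 CPM in Braf lines and 115, 78 and 117 CPM in KO lines (log2 0.09 ± 0.20, adjusted p = 0.8) and Brd9 at 32.3, 24.8 and 29 CPM in Braf lines and 26.7, 35.9 and 34.8 CPM in KO lines (log2 0.18 ± 0.16, adjusted p = 0.465). The alternative ATPase Smarca2 was at 53.5, 61.1 and 54 CPM in Braf lines and 34.1, 48.4 and 23.3 CPM in KO lines without a call (log2 -0.67 ± 0.52, adjusted p = 0.397).

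Polycomb complexes, which silence genes and are opposed by SWI/SNF, changed at the RNA level in 4 of 27 tested subunits, 14.8% against 16.5% of all genes, of which 3 rose and 1 fell. Pcgf5, a PRC1 subunit, was at 21.9, 20.3 and 16.6 CPM in Braf lines and 50, 31.7 and 46.6 CPM in KO lines (log2 1.13 ± 0.20, adjusted p = 0.00828), and the PRC2-associated Rbbp4 was at 172, 134 and 183 CPM in Braf lines and 267, 287 and 236 CPM in KO lines (log2 0.69 ± 0.16, adjusted p = 0.0197). Cbx6, which reads the Polycomb mark, fell from 374, 167 and 310.0 to 125, 99.6 and 91.5 CPM (log2 -1.43 ± 0.35, adjusted p = 0.0256). Ezh2, the methyltransferase, was wholly higher in the KO lines but not called, at 46, 52.9 and 28 CPM in Braf lines and 64.5, 69.3 and 53.2 CPM in KO lines (log2 0.56 ± 0.29, adjusted p = 0.203). With 1 Braf line left out, a call was lost for Smarcd1 (without B47275) and Cbx6 (without B47275 or B52482). Where a KO line was left out, it was lost for Smarcd1 (without BS53736 or BS53965), Rbbp4 (without BS53736 or BS53958) and Cbx6 (without BS53736, BS53958 or BS53965), with a highest adjusted p of 0.078.

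Genes of DNA replication were higher in the Smarcb1 KO lines. Of 20 tested members 13 rose (65% against 6.73% of all genes called higher) and none fell. For 18 of 20 the lowest KO line was above the highest Braf line, which held for 17.2% of all genes. The list's median log2 difference was 1.05. Cdt1, which loads the MCM helicase at origins, was at 40.1, 32.4 and 26.1 CPM in Braf lines and 119.8, 166 and 104 CPM in KO lines (log2 1.98 ± 0.32, adjusted p = 0.00628). It was the only member of this list called under every alternative. Uhrf1, which carries DNA methylation through replication, was at 98.6, 46.2 and 57.3 CPM in Braf lines and 269, 272 and 245 CPM in KO lines (log2 1.96 ± 0.42, adjusted p = 0.0159). Chaf1a, the histone chaperone of the fork, was at 39.4, 24 and 29.4 CPM in Braf lines and 76, 84.6 and 78.5 CPM in KO lines (log2 1.37 ± 0.29, adjusted p = 0.0166), and the sliding clamp Pcna at 139.9, 153 and 94.8 CPM in Braf lines and 252, 310.0 and 259.9 CPM in KO lines (log2 1.08 ± 0.24, adjusted p = 0.0188). For these 4 genes as well the lowest KO line exceeded the highest Braf line. The helicase subunits Mcm3, Mcm5 and Mcm4 rose by 1.27 ± 0.29, 1.41 ± 0.33 and 0.99 ± 0.26 (log2, adjusted p = 0.0197, 0.0208 and 0.0307), and Gins1 of the GINS complex by 1.33 ± 0.35 (adjusted p = 0.0309). Rrm2, a subunit of ribonucleotide reductase, missed the threshold at 112, 66.9 and 47.2 CPM in Braf lines and 205, 163 and 164 CPM in KO lines (log2 1.23 ± 0.39, adjusted p = 0.0563). With 1 line left out the list's count was 4 to 9 of 20 (4 without B52482, BS53736 or BS53965 and 6 without B48051 or BS53958), and it was 2 in the limma fit with the line as a random effect. Leaving out 1 Braf line ended the call of Mcm3 and Mcm5 (without B48051 or B52482) and Mcm4 and Gins1 (without B47275, B48051 or B52482). The same held, leaving out 1 KO line, for Mcm3 and Mcm5 (without BS53736 or BS53965) and Mcm4 and Gins1 (without BS53736, BS53958 or BS53965), with a highest adjusted p of 0.0863. A call was gained by Rrm2 without B47275 (log2 1.63, adjusted p = 0.0419).

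Of 20 tested mitosis genes 3 rose (Ttk, Nusap1 and Aurkb) and none fell. That was 15%, against 6.73% of all genes called higher and 16.5% called in either direction. The limma fit with the line as a random effect called 0 of the 20 mitosis genes. For 11 of the 20 the KO lines lay wholly above the Braf lines, which held for 17.2% of all genes, and the list's median log2 difference was 0.667. The spindle checkpoint kinase Ttk was at 20.5, 16.5 and 15.6 CPM in Braf lines and 30.8, 39.5 and 32.4 CPM in KO lines (log2 0.97 ± 0.23, adjusted p = 0.0222). Nusap1, a spindle protein, went from 46, 37.5 and 26 to 63.6, 98.7 and 69.1 CPM (log2 1.08 ± 0.26, adjusted p = 0.0222), with the highest level in BS53958. Aurkb, the kinase of the chromosomal passenger complex, had a log2 difference of 1.14 ± 0.32 (adjusted p = 0.0381). The proliferation marker Mki67 was at 369, 339 and 314 CPM in Braf lines and 522, 571 and 429 CPM in KO lines without a call (log2 0.57 ± 0.25, adjusted p = 0.137), and Plk1 at 79.1, 79.7 and 58.1 CPM in Braf lines and 51.7, 109.8 and 49.3 CPM in KO lines overlapped (log2 -0.04 ± 0.30, adjusted p = 0.94). Of 18 regulators of G1, 4 rose and none fell (22.2% against 6.73% of all genes called higher). Rb1, the retinoblastoma protein that restrains E2F factors, was at 34.7, 41 and 33.4 CPM in Braf lines and 108, 49.8 and 94.6 CPM in KO lines (log2 1.21 ± 0.26, adjusted p = 0.0162), and the inhibitor Cdkn2c (p18) at 28.1, 11.9 and 26.5 CPM in Braf lines and 47.8, 48 and 56.6 CPM in KO lines (log2 1.20 ± 0.31, adjusted p = 0.0287). Ccne2 and Cdk2, the cyclin and kinase of S phase entry, rose by 1.64 ± 0.44 and 0.82 ± 0.23. Cdkn2a (p16 and p19) and Cdkn1a (p21), inhibitors studied as SMARCB1 targets in rhabdoid cells, were not called. Cdkn2a was at 29.3, 72.3 and 31.7 CPM in Braf lines and 26.6, 84.5 and 106 CPM in KO lines (log2 0.70 ± 1.11, adjusted p = 0.692) and Cdkn1a at 659, 481 and 443 CPM in Braf lines and 426, 709 and 374 CPM in KO lines (log2 -0.07 ± 0.29, adjusted p = 0.89). Myc was higher in each KO line, at 70.7, 139 and 76.5 CPM in Braf lines and 181, 183 and 247 CPM in KO lines, and did not pass (log2 1.09 ± 0.38, adjusted p = 0.0727). None of the 9 Myc family factors was called, and 2 of 15 p53 targets were, 1 in each direction. The counts were small and unsteady, at 0 without BS53958 and 1 without B48051 or B52482 for the mitosis list and 0 without BS53736, 1 without B47275, BS53958 or BS53965 and 2 without B52482 for the G1 list. Among fits without 1 Braf line, calls were lost for Ttk (without B48051 or B52482), Aurkb, Ccne2 and Cdk2 (without B47275, B48051 or B52482) and Rb1 (without B47275). When a KO line was left out, calls were lost for Ttk and Nusap1 (without BS53958), Aurkb, Cdkn2c, Ccne2 and Cdk2 (without BS53736, BS53958 or BS53965) and Rb1 (without BS53736), with a highest adjusted p of 0.106. Not called with all lines, the test was passed by Myc without B48051 (log2 1.47, adjusted p = 0.0408).

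**Figure D3:**
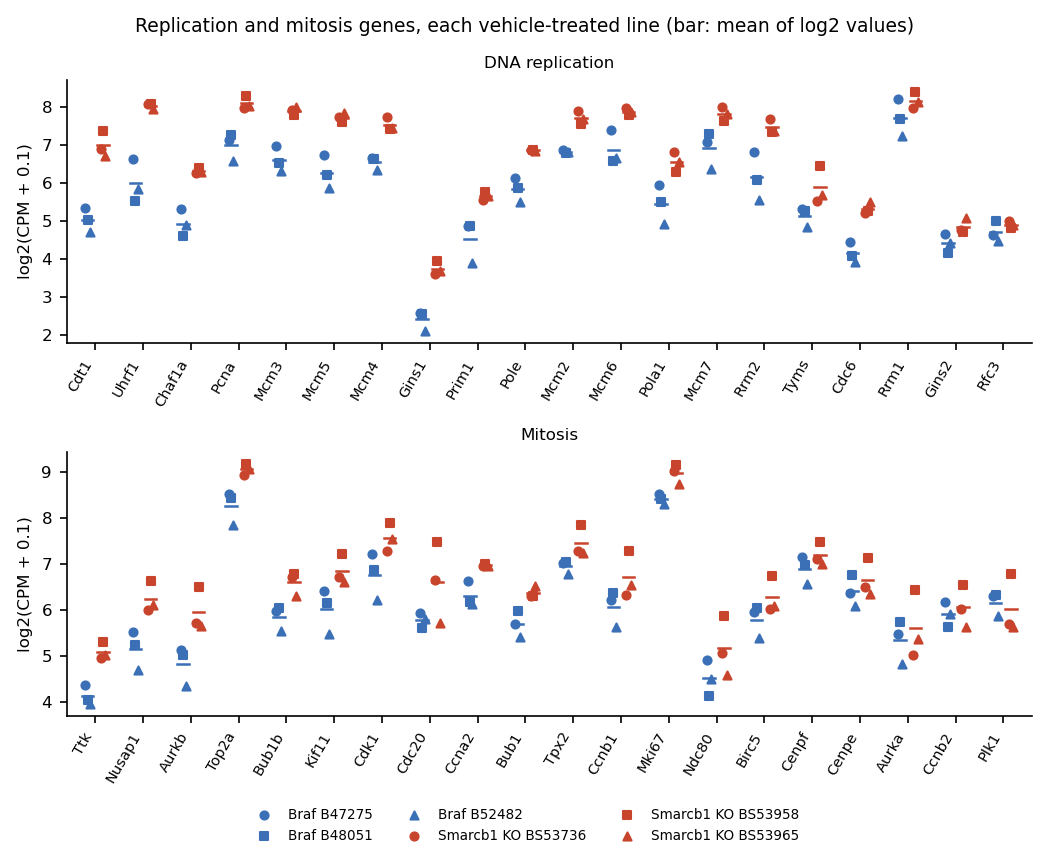
Level of every tested DNA replication gene (top) and mitosis gene (bottom) as log2(CPM + 0.1) in each vehicle-treated line, blue for Braf and red for Smarcb1 KO, a marker shape per line and a bar at the mean of the 3 log2 values. The KO lines lie above the Braf lines for 18 of 20 replication genes and 11 of 20 mitosis genes.

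The promoters of these lists carry known motifs, shown because their members moved together. RefSeq promoter windows (mouse build GRCm38.p6, 250 bases before to 50 after the start) were matched by symbol for 16 of the 20 replication genes and 17 of the 20 mitosis genes. The E2F motif TTTNNCGC, searched on both strands as was every other motif here, was present for 10 of 16 replication genes (62.5%), 1 of 17 mitosis genes (5.88%) and 5.93% of all 27025 genes with a window. The cell cycle homology region CHR, TTTGAA, was present for 12 of 17 mitosis genes (70.6%), 1 of 16 replication genes (6.25%) and 20.2% of all genes. Of the 10 matched replication genes that rose 6 held the E2F motif, and the uncalled Tyms, Mcm7, Rfc3 and Cdc6 held it too. A palindromic stretch can match the E2F motif on both strands at overlapping positions. A match is a description of letters and says nothing of binding. Short windows around the match in called replication genes are printed in the direction of the gene with the match in capitals, so a match on the other strand appears as its reverse complement. Mcm6 and Pola1 were chosen for printing after their values were seen, as called genes with a match before the start.
Mcm5, chr8:75109340-75109379, plus strand: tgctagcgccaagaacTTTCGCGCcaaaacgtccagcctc
Uhrf1, chr17:56304112-56304151, plus strand: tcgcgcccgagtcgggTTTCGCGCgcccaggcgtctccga
Mcm6, chr1:128359792-128359831, minus strand: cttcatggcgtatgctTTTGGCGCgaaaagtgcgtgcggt
Mcm6, chr1:128359729-128359768, minus strand: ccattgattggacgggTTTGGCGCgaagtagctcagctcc
Pola1, chrX:93632270-93632309, minus strand: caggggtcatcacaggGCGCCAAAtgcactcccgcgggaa
These 5 windows belong to 4 genes that rose, by 1.41 ± 0.33 for Mcm5, 1.96 ± 0.42 for Uhrf1, 0.95 ± 0.27 for Mcm6 (adjusted p = 0.04) and 1.05 ± 0.31 for Pola1 (adjusted p = 0.0453). Removal of a single Braf line ended the call of Mcm5, Mcm6 and Pola1 (without B48051 or B52482). Dropping a single KO line ended that of Mcm5 (without BS53736 or BS53965) and Mcm6 and Pola1 (without BS53736, BS53958 or BS53965), with a highest adjusted p of 0.12.

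Wnt pathway genes fell and a secreted inhibitor appeared. Wnt proteins bind Frizzled receptors and stabilise beta-catenin, which acts with TCF factors. Of 40 tested members 15 fell (37.5% against 9.78% of all genes), 1 rose, and 21 lay wholly below the Braf lines, which held for 17.6% of all genes. The ligand Wnt7b dropped from 281, 616 and 418 to 1.92, 13.8 and 21.9 CPM (log2 -5.13 ± 0.87, adjusted p = 0.00752). Receptors followed, with Fzd1 at 187, 221 and 172 CPM in Braf lines and 2.2, 17.7 and 5.53 CPM in KO lines (log2 -4.51 ± 0.74, adjusted p = 0.00674) and Fzd4 at 15.5, 8.99 and 7.19 CPM in Braf lines and 1.17, 0.438 and 1.06 CPM in KO lines (log2 -3.56 ± 0.55, adjusted p = 0.00523). The groups were far apart for each. The transcription factor Tcf7 was at 8.59, 15.8 and 19.4 CPM in Braf lines and 0.981, 0.925 and 1.23 CPM in KO lines (log2 -3.79 ± 0.39, adjusted p = 0.00121). Axin2, the feedback target most used as a readout of the pathway, fell from 16.9, 23.6 and 98.5 to 1.78, 1.75 and 2.25 CPM (log2 -4.58 ± 0.75, adjusted p = 0.00674). Rnf43, another target, which removes Frizzled from the surface, fell from 10.6, 50.1 and 11.8 to 0.327, 1.02 and 0.255 CPM (log2 -5.49 ± 0.81, adjusted p = 0.00451). The secreted modulator Dkk3 fell as well, from 3.19, 6.73 and 6.89 to 0.0467, 0.0487 and 0 CPM (ratio 181, 95% counting interval 49.6 to 1497, adjusted p = 0.00221). Wif1, which binds and blocks Wnt ligands outside the cell, was the 1 member that rose and was at or near 0 in each Braf line, at 0, 0 and 0.102 CPM in Braf lines and 80.9, 26.2 and 24.8 CPM in KO lines (ratio 1324, 95% counting interval 366 to 10940.0, adjusted p = 0.00121). Of the 16 called members, 8 were called in every alternative (Wnt7b, Fzd1, Fzd4, Fzd8, Tcf7, Axin2, Rnf43 and Wif1). Without BS53736 the number lower was 10, and the other 5 lines left out in turn gave 12 to 14. The TCF motif CTTTGAT was in the promoter windows of 2 of 34 matched members, 5.88% against 4.29% of all genes. 

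TGF-beta and BMP signalling genes showed the same direction without exception among the calls. Of 44 tested, 15 fell (34.1% against 9.78% of all genes), none rose and 22 lay wholly below the Braf lines, which held for 17.6% of all genes. Ligands are cut, bind paired type I and II receptors and act through SMAD factors and Id proteins. Tgfbr2, the type II receptor, was at 722, 386 and 1081 CPM in Braf lines and 67.6, 118 and 109.9 CPM in KO lines (log2 -2.89 ± 0.47, adjusted p = 0.00674), and the type I receptors Tgfbr1 and Acvr1b had log2 differences of -0.95 ± 0.22 and -1.66 ± 0.38. Bmp1, a protease that matures collagens and frees BMPs, was at 341, 206 and 288 CPM in Braf lines and 44.5, 63.2 and 76.9 CPM in KO lines (log2 -2.18 ± 0.34, adjusted p = 0.00615). Ltbp3, which stores latent TGF-beta in the matrix, was at 855, 810.2 and 1124 CPM in Braf lines and 300.4, 239 and 235 CPM in KO lines (log2 -1.85 ± 0.34, adjusted p = 0.00991). Both differences exceeded the spread between lines. The antagonists fell too, Fst (follistatin) from 136, 83.8 and 78.8 to 2.62, 7.16 and 4.29 CPM (log2 -4.40 ± 0.71, adjusted p = 0.00674) and Nog (noggin) from 11.2, 3.44 and 6.73 to 0, 0.39 and 0.0425 CPM (log2 -5.60 ± 1.17, adjusted p = 0.0149). Id4, a BMP target that blocks helix-loop-helix factors, was at 21.4, 34.3 and 15.9 CPM in Braf lines and 0.467, 0.828 and 0.255 CPM in KO lines (log2 -5.52 ± 0.76, adjusted p = 0.00351). The list's count was 7 without BS53736 and 9 without BS53965, and 11 to 13 without any other line. Fits short of 1 KO line lost the call of Tgfbr1 (without BS53736) and Acvr1b (without BS53958), with a highest adjusted p of 0.0531.

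Eph receptors and ephrins, contact signals that guide cell sorting and axons, changed in 12 of 18 tested members, 10 lower and 2 higher (66.7% called against 16.5% of all genes). Among the receptors, Ephb6 fell from 231, 66 and 403 to 4.53, 5.55 and 5.83 CPM (log2 -5.46 ± 0.69, adjusted p = 0.00254), Ephb3 from 37.7, 78.5 and 37 to 0.0467, 2.63 and 0.638 CPM (log2 -5.53 ± 0.98, adjusted p = 0.00859), and Epha4 from 81.4, 59.2 and 44.7 to 0, 1.85 and 0.17 CPM (log2 -6.52 ± 1.40, adjusted p = 0.0163). BS53958 kept the highest level of Ephb3 and Epha4 among the KO lines. Of the ligands, Efna1 was at 24.3, 34 and 16.2 CPM in Braf lines and 0.654, 1.75 and 0.595 CPM in KO lines (log2 -4.63 ± 0.56, adjusted p = 0.00221) and Efnb2 at 162, 217 and 306 CPM in Braf lines and 1.54, 22.2 and 10.4 CPM in KO lines (log2 -4.33 ± 0.78, adjusted p = 0.00915). Efnb1 and the receptor Ephb4 fell too, with log2 differences of -2.98 ± 0.57 and -2.36 ± 0.59. The 2 members that rose were the ligand Efna2, at 1.29, 0.873 and 1.89 CPM in Braf lines and 4.06, 3.36 and 5.7 CPM in KO lines (log2 1.69 ± 0.41, adjusted p = 0.0229), and the receptor Epha2, at 304, 362 and 433 CPM in Braf lines and 937, 1030.4 and 1118 CPM in KO lines (log2 1.49 ± 0.37, adjusted p = 0.026). Epha2 was named after its values were seen. The number lower was 6 to 9 with 1 line left out (6 without BS53736, BS53958 or BS53965) and 2 in the fit of the 6 libraries alone. Without 1 of the Braf lines the test no longer passed for Ephb4 (without B48051) and Efna2 and Epha2 (without B47275 or B48051). For the KO lines the same was true of Ephb4 and Epha2 (without BS53736, BS53958 or BS53965) and Efna2 (without BS53736 or BS53965), with a highest adjusted p of 0.0837. Ephb4 had a log2 difference of -1.52 without B48051.

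Axon guidance genes beyond the Eph family fell in 6 of 29 tested members and 1 rose, 24.1% called against 16.5% of all genes. Slit2, a secreted ligand of Robo receptors, was at 299, 173 and 220.0 CPM in Braf lines and 6.45, 12.2 and 4.68 CPM in KO lines (log2 -4.89 ± 0.43, adjusted p = 0.00121) and was among the 10 falls with the smallest p in the whole comparison. Nrp1 (neuropilin), a receptor for semaphorins and VEGF, was at 724, 382 and 869 CPM in Braf lines and 5.56, 17.5 and 34.9 CPM in KO lines (log2 -5.09 ± 0.66, adjusted p = 0.00289). Sema5a dropped from 170.3, 54.1 and 1049 to 2.2, 3.99 and 2.85 CPM (log2 -7.14 ± 1.07, adjusted p = 0.00468). B52482 held by far the most Sema5a, and all 3 KO lines were close together. The plexins Plxna1 and Plxnb1, receptors for semaphorins, fell with log2 differences of -1.43 ± 0.22 and -4.58 ± 0.95. Slit1 was the member that rose, from 0.139, 0.154 and 0.051 to 1.31, 0.779 and 0.85 CPM (log2 3.03 ± 0.81, adjusted p = 0.0328), and it stayed low. Slit2, Nrp1, Sema5a and Plxna1 were called under every alternative. Without BS53736 the count lower was 4, or 5 to 7 without another line. With 1 Braf line left out, a call was lost for Slit1 (without B47275, B48051 or B52482). Where a KO line was left out, it was lost for Plxnb1 (without BS53736) and Slit1 (without BS53736, BS53958 or BS53965), with a highest adjusted p of 0.0877.

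**Figure D4:**
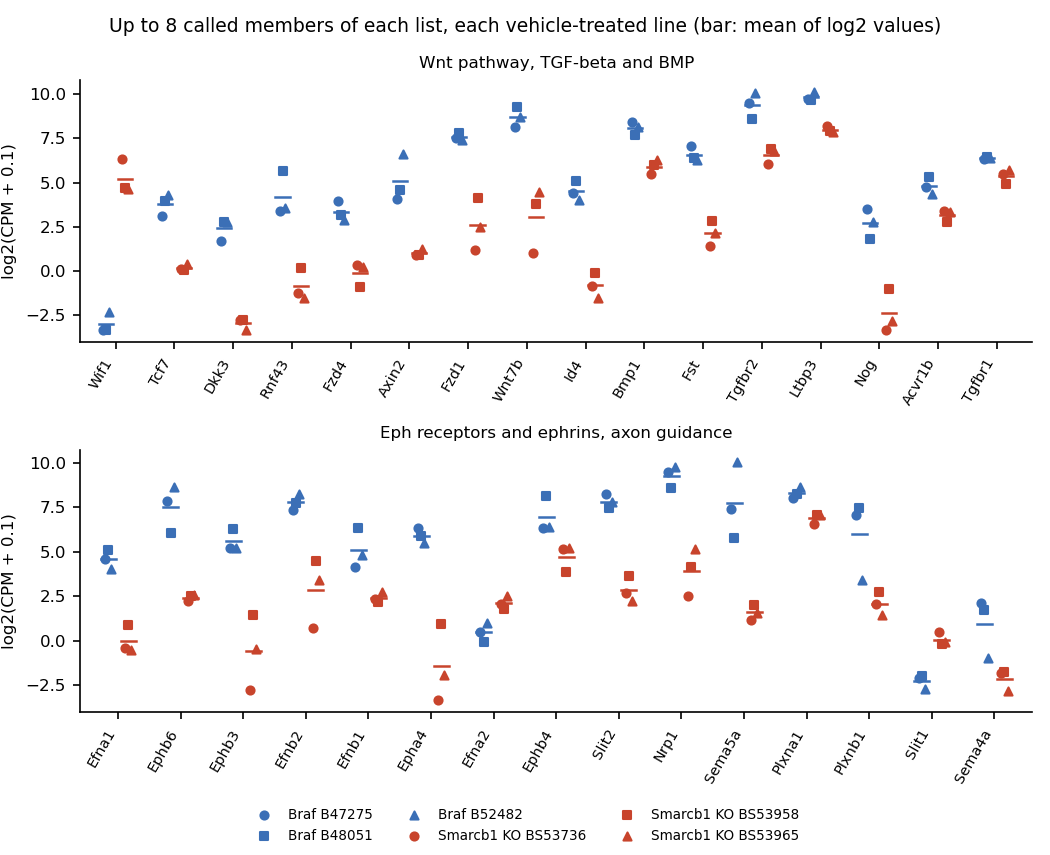
Levels as log2(CPM + 0.1) in each vehicle-treated line for up to 8 called members by smallest p of the Wnt and the TGF-beta and BMP lists (top) and of the Eph and ephrin and the axon guidance lists (bottom), blue for Braf and red for Smarcb1 KO, with a marker shape per line and a bar at the mean of the 3 log2 values. Wif1, Efna2 and Slit1 are the members higher in the KO lines, and the other members shown are lower.

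Extracellular matrix genes fell in 25 of 86 tested members (29.1% against 9.78% of all genes, with 1 that rose) and had a median log2 difference of -2.71. Gpc4, a glypican that holds growth factors at the cell surface, was at 108, 77.2 and 239.8 CPM in Braf lines and 0.327, 2.14 and 1.19 CPM in KO lines (log2 -6.86 ± 0.68, adjusted p = 0.00121), and Col12a1, a collagen that links fibrils, at 187, 46.6 and 273 CPM in Braf lines and 0.327, 1.41 and 0.765 CPM in KO lines (log2 -7.65 ± 0.99, adjusted p = 0.0027). Agrn (agrin), a basement membrane proteoglycan, was at 712, 694 and 709 CPM in Braf lines and 81, 90 and 145 CPM in KO lines (log2 -2.74 ± 0.55, adjusted p = 0.0132). The 3 Braf lines were alike for Agrn and far above each KO line. Of the 26 called members of this list, these 3 were called under every alternative. Lama5, the laminin chain of mature basement membranes, was at 913, 1001 and 1298 CPM in Braf lines and 2.34, 36.4 and 2 CPM in KO lines (log2 -6.30 ± 1.16, adjusted p = 0.00991). Serpine2 and Loxl4, a protease inhibitor and a collagen crosslinking enzyme, fell with log2 differences of -6.81 ± 1.18 and -7.24 ± 1.52. Col6a3, of microfibrillar collagen, had no count in any KO line, against 2.96, 0.565 and 12.7 CPM in the Braf lines (at least 116-fold lower, adjusted p = 0.0114). Has2, which makes hyaluronan, likewise had no KO count against 9.89, 39.7 and 10.6 CPM (at least 429-fold lower, adjusted p = 0.0202). For the gelatinase Mmp2 the Braf lines were themselves far apart, at 5.41, 0.462 and 153 CPM in Braf lines and 0, 0.195 and 0 CPM in KO lines (log2 -9.61 ± 2.28, adjusted p = 0.0222). Fn1 (fibronectin), named after its values were seen, was at 11689, 5520.5 and 19194 CPM in Braf lines and 4.06, 364 and 3.53 CPM in KO lines (log2 -6.61 ± 1.71, adjusted p = 0.0298), so BS53958 kept far more than the other KO lines. Not all matrix genes fell. Col4a1 of basement membranes was at 132, 72.9 and 205 CPM in Braf lines and 334, 91.8 and 2437 CPM in KO lines (log2 2.80 ± 1.08, adjusted p = 0.0998), with the highest level in BS53965. The count was 8 without BS53736, 9 without BS53965, 15 without BS53958 and 16 without B52482. AP-1 motifs (TGANTCA) were in the promoter windows of 8 of 63 matched matrix genes (12.7%, against 8.97% of all genes). Of those 8, Mmp12 and Tnxb were not tested and the others were not called. Leaving out 1 Braf line ended the call of Fn1 (without B47275). The same held, leaving out 1 KO line, for Loxl4 (without BS53736), Has2 and Fn1 (without BS53736 or BS53965) and Mmp2 (without BS53736, BS53958 or BS53965), with a highest adjusted p of 0.0721. Mmp2 had a log2 difference of -5.42 without B52482 and Fn1 had a log2 difference of -11.64 without BS53958. Among the uncalled genes, the test was passed by Col4a1 without BS53958 (log2 3.35, adjusted p = 0.0486).

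Of 17 integrin chains 3 fell and none rose, 17.6% against 9.78% of all genes called lower and 16.5% called in either direction. Those that fell were Itgb8, Itgb2 and Itga2, with log2 differences of -4.10 ± 0.91, -4.68 ± 0.92 and -5.64 ± 1.5. Of 21 tested mesenchymal and contractile genes 4 fell and none rose, 19% against 9.78% of all genes called lower. The falls numbered 2 to 5 with 1 line left out. Summed, the list stood at 5711, 1696 and 10570 CPM in Braf lines and 7344, 11400 and 7671 CPM in KO lines. Among the falls, Tpm1 (tropomyosin), which stabilises actin filaments, was at 3574, 1231 and 1852 CPM in Braf lines and 136, 126 and 145 CPM in KO lines (log2 -4.03 ± 0.47, adjusted p = 0.002), with the KO lines close together. Flnc, a filamin that crosslinks actin, is not in that list and was named as 1 of the 25 largest falls. It was at 315, 72.6 and 420.3 CPM in Braf lines and 0.327, 0.974 and 0 CPM in KO lines (log2 -9.29 ± 1.19, adjusted p = 0.00263). YAP and TEAD genes respond to tension and cell shape. Of 22 tested members 6 fell and none rose, 27.3% against 9.78% of all genes called lower and 16.5% in either direction. Cyr61 (Ccn1), a secreted YAP target, was at 325, 261 and 368 CPM in Braf lines and 65.7, 36.6 and 116 CPM in KO lines (log2 -2.12 ± 0.42, adjusted p = 0.0123). Amotl1, which binds YAP, was at 719.8, 455 and 501 CPM in Braf lines and 139, 224 and 191 CPM in KO lines (log2 -1.60 ± 0.26, adjusted p = 0.00674). Tead3, one of the DNA-binding partners, and the upstream kinase Lats1 fell, with log2 differences of -1.18 ± 0.25 and -0.54 ± 0.12. Ctgf and Ankrd1, also YAP targets, were not called. Ctgf was at 82.5, 446 and 205 CPM in Braf lines and 0.0467, 15.5 and 0.0425 CPM in KO lines (log2 -5.56 ± 1.73, adjusted p = 0.0541) and Ankrd1 at 398, 266 and 278 CPM in Braf lines and 541, 225 and 492 CPM in KO lines (log2 0.42 ± 0.41, adjusted p = 0.511). The TEAD motif GGAATG (both strands) was in the promoter windows of 13 of 18 matched members of this list (72.2%) and of 16.6% of all genes. Tead3 and Amotl2, which fell, are printed with the match in capitals.
Tead3, chr17:28350966-28351003, minus strand: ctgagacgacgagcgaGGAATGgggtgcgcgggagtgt
Amotl2, chr9:102717723-102717760, plus strand: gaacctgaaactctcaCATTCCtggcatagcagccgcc
Amotl2 itself was at 151, 102 and 124 CPM in Braf lines and 72.7, 44.7 and 55.9 CPM in KO lines (log2 -1.12 ± 0.31, adjusted p = 0.0377). Among fits without 1 Braf line, calls were lost for Itga2 (without B47275 or B48051) and Amotl2 (without B47275 or B52482). When a KO line was left out, calls were lost for Itgb8 (without BS53958 or BS53965), Itga2 and Amotl2 (without BS53736, BS53958 or BS53965) and Lats1 (without BS53736), with a highest adjusted p of 0.107. A call was gained by Ctgf without BS53958 (log2 -12.24, adjusted p = 0.00249).

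The MAPK pathway, which Braf(V600E) drives, showed changes in both directions. Braf itself was not called, at 50.4, 44.8 and 51.4 CPM in Braf lines and 59.9, 44.2 and 54.5 CPM in KO lines (log2 0.11 ± 0.15, adjusted p = 0.626). In the cascade of 14 tested genes 2 rose and 3 fell, 35.7% called against 16.5% of all genes. Mapk3 (ERK1) was at 233, 178 and 254 CPM in Braf lines and 119, 111 and 129 CPM in KO lines (log2 -0.89 ± 0.20, adjusted p = 0.0204), and the scaffold Ksr1 rose from 5.22, 4.21 and 7.55 to 97.6, 8.42 and 39 CPM (log2 3.09 ± 0.76, adjusted p = 0.0254). Of 30 output genes 4 rose and 6 fell (33.3% called), and the split ran through the negative feedback genes. The ERK phosphatase Dusp4 was at 129, 277 and 221 CPM in Braf lines and 4.72, 15.6 and 4.59 CPM in KO lines (log2 -4.65 ± 0.62, adjusted p = 0.00306). Dusp1, which also acts on JNK and p38, was at 73.1, 35.5 and 49.9 CPM in Braf lines and 7.52, 11.5 and 3.83 CPM in KO lines (log2 -2.79 ± 0.45, adjusted p = 0.00634). In the opposite direction, Dusp10, which prefers JNK and p38, was at 19.8, 15.6 and 12.8 CPM in Braf lines and 81.6, 57.6 and 159 CPM in KO lines (log2 2.63 ± 0.49, adjusted p = 0.00994). The inhibitors Spry4 and Spred2 rose, Spry4 from 9.24, 16 and 62 to 483, 221 and 489 CPM (log2 3.77 ± 0.69, adjusted p = 0.00991) and Spred2 from 76.8, 100.4 and 133 to 395, 204 and 341 CPM (log2 1.60 ± 0.29, adjusted p = 0.00935). Of the Ets factors, Ets2 fell from 131, 385 and 99.2 to 34.4, 30.5 and 29.6 CPM (log2 -2.70 ± 0.52, adjusted p = 0.0111) and Etv4 had a log2 difference of -1.29 ± 0.27. Dusp6, the phosphatase most specific to ERK, overlapped at 302, 177 and 206 CPM in Braf lines and 97.2, 150.4 and 202 CPM in KO lines (log2 -0.61 ± 0.36, adjusted p = 0.263), as did Etv5 at 73.6, 75.8 and 199.5 CPM in Braf lines and 83.6, 95.6 and 123 CPM in KO lines (log2 -0.21 ± 0.36, adjusted p = 0.724). Among 12 tested AP-1 subunits 1 rose and 2 fell, 25% called against 16.5% of all genes. Atf3 rose from 15.1, 10.1 and 6.17 to 75.7, 43.9 and 33.3 CPM (log2 2.29 ± 0.47, adjusted p = 0.0145). Maf, 1 of the 2 that fell, went from 21.8, 66.4 and 54.3 to 0.0934, 1.17 and 0.468 CPM (log2 -6.36 ± 1.26, adjusted p = 0.0127). A list of other receptor tyrosine kinases and their ligands left out the Eph family and Fgf15, which are given elsewhere. Of its 39 tested members 4 fell and none rose, 10.3% against 9.78% of all genes called lower. Among those that fell, Pdgfd was at 28.7, 15.7 and 31.7 CPM in Braf lines and 0.28, 1.22 and 0.0425 CPM in KO lines (log2 -5.63 ± 0.88, adjusted p = 0.00584). Egfr was at 79.6, 112 and 144 CPM in Braf lines and 1021, 124 and 595 CPM in KO lines, uneven among the KO lines and not called (log2 2.38 ± 0.87, adjusted p = 0.0869). The output counts changed little with 1 line left out (3 to 5 higher, 5 to 7 lower), the cascade kept 0 falls without B47275, B52482, BS53736 or BS53958 and 0 rises without B47275, B48051 or BS53736, and receptor falls numbered 8 without BS53958 and 2 without BS53736. Removal of a single Braf line ended the call of Mapk3 (without B47275 or B52482) and Ksr1 (without B47275 or B48051). Dropping a single KO line ended that of Mapk3 (without BS53736 or BS53958) and Ksr1 and Etv4 (without BS53736), with a highest adjusted p of 0.0791. Not called with all lines, the test was passed by Egfr without BS53958 (log2 2.86, adjusted p = 0.0491).

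As a check of the labelled tissue, Pax8 and Nkx2-1 were detected in every line while most hormone genes were near 0. Pax8 was at 127, 78.2 and 84.6 CPM in Braf lines and 144, 3.46 and 16.7 CPM in KO lines (log2 -0.82 ± 1.01, adjusted p = 0.61) and Nkx2-1 at 112, 12.1 and 74 CPM in Braf lines and 74.7, 26.5 and 24.3 CPM in KO lines (log2 -0.66 ± 0.80, adjusted p = 0.605), so BS53958 and BS53965 held little Pax8 and BS53736 as much as a Braf line. Foxe1 was found in B47275 alone, at 6.75 CPM. Tg (thyroglobulin) stood at 7.44, 1.64 and 1.53 CPM in Braf lines and 0.374, 1.12 and 0.468 CPM in KO lines (log2 -2.43 ± 1.20, adjusted p = 0.184), and the iodide pump Slc5a5 at 0.693, 0.359 and 0.255 CPM in Braf lines and 0.561, 1.8 and 0.51 CPM in KO lines (log2 1.12 ± 0.73, adjusted p = 0.312). Tshr, the TSH receptor, was at 0.231, 0.103 and 0.459 CPM in Braf lines and 0.14, 0.195 and 0.0425 CPM in KO lines and was not tested. The median log2 difference of 19 tested thyroid genes was -2.82, and 10 lay wholly below the Braf lines, which held for 17.6% of all genes. By the test 3 of the 19 fell (5 without B52482) and none rose. That was 15.8%, against 9.78% of all genes called lower and 16.5% called in either direction. Glis3, a factor needed for hormone synthesis, was the firmest, at 31.8, 48.5 and 35.1 CPM in Braf lines and 0.888, 2.05 and 0.17 CPM in KO lines (log2 -5.22 ± 0.91, adjusted p = 0.00837). In bulk RNA, fewer cells with a transcript and less transcript per cell cannot be told apart.  Among the uncalled genes, the test was passed by Pax8 without BS53736 (log2 -3.26, adjusted p = 0.0415).

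Epithelial genes fell in the median by 5.17 on the log2 scale, and the Braf lines differed among themselves. Of 50 tested members 11 fell and 1 rose, 24% called against 16.5% of all genes. Cdh1 (E-cadherin) was at 776, 684 and 0.51 CPM in Braf lines and 0.14, 26.4 and 0.085 CPM in KO lines (log2 -5.78 ± 2.47, adjusted p = 0.131), so B52482 lay among the KO lines. Epcam showed the same layout at 251, 396 and 0.357 CPM in Braf lines and 1.03, 16.7 and 0.085 CPM in KO lines (log2 -5.19 ± 1.96, adjusted p = 0.0944). Vim (vimentin), a mesenchymal filament, had the opposite layout among the Braf lines, at 705, 13.5 and 6132 CPM in Braf lines and 5201, 6953 and 4100.4 CPM in KO lines (log2 1.25 ± 1.26, adjusted p = 0.526), with B48051 lowest. Krt8, a simple epithelial keratin, was wholly lower in the KO lines but not called, at 1933, 1508 and 632 CPM in Braf lines and 6.21, 80.8 and 0.0425 CPM in KO lines (log2 -5.55 ± 1.95, adjusted p = 0.0763). The junction protein Jup (plakoglobin) fell, at 322, 636 and 166 CPM in Braf lines and 61.6, 45.5 and 91.4 CPM in KO lines (log2 -2.50 ± 0.58, adjusted p = 0.021). Cldn6, a claudin of embryonic epithelia, was at 199.5, 423 and 22.3 CPM in Braf lines and 0, 0.0487 and 0.085 CPM in KO lines (ratio 4667, 95% counting interval 1597 to 22630.0, adjusted p = 0.00433). Leaving out B52482 raised the number lower to 24 and leaving out BS53958 to 20, while it was 1 without BS53736, 2 without B48051, 3 without B47275 and 3 without BS53965. Of 8 tested EMT factors none was called, among them Zeb1 at 55.1, 5.08 and 173 CPM in Braf lines and 31.9, 38.8 and 35.1 CPM in KO lines (log2 -1.14 ± 0.84, adjusted p = 0.374) and Twist1 at 4.25, 15.9 and 30.8 CPM in Braf lines and 94.9, 28.1 and 64.6 CPM in KO lines (log2 1.88 ± 0.79, adjusted p = 0.125). Fits short of 1 Braf line lost the call of Jup (without B48051). Fits short of 1 KO line lost that of Jup (without BS53736 or BS53958), with a highest adjusted p of 0.0651. A call was gained by Cdh1 without BS53958 (log2 -12.01, adjusted p = 0.0456), Epcam without B52482 (log2 -5.75, adjusted p = 0.0342), Epcam without BS53958 (log2 -8.60, adjusted p = 0.0495), Krt8 without BS53958 (log2 -8.76, adjusted p = 0.0413) and Zeb1 without B48051 (log2 -1.69, adjusted p = 0.0449).

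Markers of other cell types were summed in each line. Leukocyte markers (10 in the list) summed to 17.6 to 107 CPM in the Braf lines and 3.06 to 13.5 CPM in the KO lines, with Ptprc (CD45), their defining marker, at 0.0924, 0.308 and 0 CPM in Braf lines and 0, 0 and 0.0425 CPM in KO lines. Muscle markers summed to 5.89 CPM or less, C cell markers to at most 32 CPM and markers of adipocytes and red cells to at most 6.19 CPM. Fibroblast markers summed to 258 to 1730.0 CPM in the Braf lines and 178 to 660 CPM in the KO lines. Endothelial markers summed to 1.8, 14.9 and 659 CPM in BS53958, BS53736 and BS53965, against 2.41 to 5.2 CPM in the Braf lines. The sum in BS53965 was almost all Cdh5 (VE-cadherin), at 0.0462, 0.154 and 0.867 CPM in Braf lines and 5.98, 0 and 651 CPM in KO lines (log2 9.26 ± 2.87, adjusted p = 0.0529), while the endothelial receptor Kdr was at 0, 0 and 1.02 CPM in the KO lines. Pecam1 (CD31) was the 1 endothelial marker called, at 0.0462, 0.0514 and 0.306 CPM in Braf lines and 6.63, 0.0974 and 5.49 CPM in KO lines (log2 4.87 ± 1.34, adjusted p = 0.0358). Their part in the results was not tested. Cd14, listed as a leukocyte marker and also made by other cells, fell from 23.4, 103 and 13.3 to 0.28, 0.0487 and 0.0425 CPM (log2 -8.50 ± 1.44, adjusted p = 0.00763). Cd14 made up most of the leukocyte sum in each Braf line. Cd68, the other leukocyte marker tested, was not called and had a log2 difference in the other direction (1.25, adjusted p = 0.155). Without 1 of the Braf lines the test no longer passed for Pecam1 (without B47275 or B48051). For the KO lines the same was true of Pecam1 (without BS53736 or BS53965), with a highest adjusted p of 0.108. Not called with all lines, the test was passed by Cdh5 without BS53958 (log2 9.85, adjusted p = 0.0265).

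Of 39 genes of the integrated stress response, in which phosphorylated eIF2alpha favours translation of ATF4, 5 rose and 2 fell, 17.9% called against 16.5% of all genes, and 15 lay wholly above the Braf lines, which held for 17.2% of all genes. Ddit3 (CHOP), a pro-apoptotic factor downstream of ATF4, was at 10.1, 9.65 and 10.7 CPM in Braf lines and 49.2, 33.8 and 33.8 CPM in KO lines (log2 1.94 ± 0.29, adjusted p = 0.00451). Atf4 was at 141, 149 and 178 CPM in Braf lines and 300.3, 357 and 282 CPM in KO lines (log2 1.0 ± 0.22, adjusted p = 0.0167), and Sesn2 (sestrin), a brake on mTORC1, at 59.2, 61 and 45.6 CPM in Braf lines and 199.7, 125 and 112 CPM in KO lines (log2 1.40 ± 0.30, adjusted p = 0.0155). Chac1, which degrades glutathione, and Ppp1r15a (GADD34), which reverses the eIF2alpha mark, rose by 2.20 ± 0.59 and 0.86 ± 0.21 on the log2 scale. The 2 that fell were Nupr1, a stress-induced chromatin protein, from 54.5, 164 and 22.5 to 0.187, 2.73 and 0.085 CPM (log2 -6.33 ± 1.32, adjusted p = 0.0146), and Aldh1l2, a mitochondrial folate enzyme, from 59.8, 17.4 and 202 to 1.17, 1.02 and 0.255 CPM (log2 -6.84 ± 1.36, adjusted p = 0.0128). Asns and Trib3, typical ATF4 targets, were not called, with Asns at 69.8, 74.9 and 199.8 CPM in Braf lines and 232, 205 and 245 CPM in KO lines (log2 0.98 ± 0.62, adjusted p = 0.289) and Trib3 at 13.2, 16.7 and 22.1 CPM in Braf lines and 53.1, 28.1 and 30.5 CPM in KO lines (log2 1.10 ± 0.74, adjusted p = 0.322). The unfolded protein response had 1 call among 20 (5% against 16.5% of all genes), a fall of Atf6 (log2 -2.0 ± 0.45, adjusted p = 0.0183), and Hspa5 (BiP) overlapped at 731, 542 and 1461 CPM in Braf lines and 769, 1068 and 1010.0 CPM in KO lines (log2 0.06 ± 0.42, adjusted p = 0.939). Of 14 heat shock genes 3 fell and none rose (21.4% against 9.78% of all genes called lower). All 3 were small heat shock proteins, with Hspb1 at a log2 difference of -5.49 ± 1.19. Cryab was at 200.4, 288 and 107 CPM in Braf lines and 2.29, 5.06 and 4.17 CPM in KO lines (log2 -5.69 ± 0.64, adjusted p = 0.00173), and Hspb8 had no count in any KO line against 35.3, 2.21 and 41.5 CPM in the Braf lines (at least 582-fold lower, adjusted p = 0.0121). The count of stress response genes that rose was 2 without B47275, 3 without BS53736 and 3 without BS53965. With 1 Braf line left out, a call was lost for Atf4 and Ppp1r15a (without B47275) and Chac1 (without B47275, B48051 or B52482). Where a KO line was left out, it was lost for Chac1 (without BS53736, BS53958 or BS53965), Ppp1r15a and Atf6 (without BS53736 or BS53965) and Hspb1 (without BS53965), with a highest adjusted p of 0.0779.

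Among 21 antioxidant genes, most of them targets of the factor NRF2, 4 rose and 2 fell, 28.6% called against 16.5% of all genes. Srxn1 (sulfiredoxin), which repairs peroxiredoxins, was at 158, 131 and 193 CPM in Braf lines and 626, 917 and 666 CPM in KO lines (log2 2.20 ± 0.31, adjusted p = 0.00367). Pgd, an enzyme of the pentose phosphate pathway that makes NADPH, was at 188, 148 and 192 CPM in Braf lines and 347, 643 and 676 CPM in KO lines (log2 1.66 ± 0.30, adjusted p = 0.00963). Txnrd1 (thioredoxin reductase) rose from 276, 403 and 259 to 1589, 602 and 1422 CPM (log2 1.95 ± 0.41, adjusted p = 0.0147), least in BS53958. Hmox1 (heme oxygenase) rose from 87.9, 68.7 and 57.7 to 203, 227 and 1544 CPM (log2 3.20 ± 0.79, adjusted p = 0.0251), most in BS53965. Carbonyl reductase Cbr1 and epoxide hydrolase Ephx1 fell, with log2 differences of -1.68 ± 0.28 and -2.48 ± 0.52. Nfe2l2, which encodes NRF2, was at 414, 437 and 541 CPM in Braf lines and 447, 549.7 and 664 CPM in KO lines (log2 0.25 ± 0.18, adjusted p = 0.351), and Nqo1, a common NRF2 readout, at 4.67, 15.1 and 7.75 CPM in Braf lines and 0.0934, 1.02 and 12.7 CPM in KO lines (log2 -0.99 ± 1.65, adjusted p = 0.711). Neither was called. Fth1 and Blvrb, of iron and heme handling, stood among the 10 rises with the smallest p. Fth1 (ferritin heavy chain), which stores iron, was at 1013, 1259 and 1566 CPM in Braf lines and 5952, 4761 and 5884 CPM in KO lines (log2 2.11 ± 0.22, adjusted p = 0.00121). Blvrb (biliverdin reductase B) was at 13.5, 14.1 and 9.39 CPM in Braf lines and 61.5, 109.9 and 107 CPM in KO lines (log2 2.91 ± 0.29, adjusted p = 0.00121). The ferritin light chain Ftl1, looked up after these values were seen, was at 576, 998 and 274 CPM in Braf lines and 803, 1044 and 1222 CPM in KO lines (log2 0.73 ± 0.38, adjusted p = 0.21) and was not called. Ferritin genes have many processed copies in the mouse genome, and reads shared among copies could be counted differently. Without B47275 the antioxidant list had 2 rises. Leaving out 1 Braf line ended the call of Txnrd1 (without B47275) and Hmox1 (without B47275, B48051 or B52482). The same held, leaving out 1 KO line, for Hmox1 (without BS53965) and Ephx1 (without BS53736), with a highest adjusted p of 0.0654. Hmox1 had a log2 difference of 1.59 without BS53965. Among the uncalled genes, the test was passed by Ftl1 without B48051 (log2 1.27, adjusted p = 0.0387).

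Promoter windows of these lists held their own motifs more often than windows at large. The lists were made mainly of known targets of these pathways, so the excess was built in and is no finding about these lines. The ATF4 element TGATGNAA was present for 11 of 33 matched stress response genes (33.3%) against 4.51% of all genes, and of the called ones for Chac1, which rose, and Nupr1, which fell. The antioxidant response element TGACNNNGC was present for 7 of 17 matched antioxidant genes (41.2%) against 14% of all genes. All 3 matched members that rose (Srxn1, Pgd and Txnrd1) held it, and neither of the 2 that fell. The uncalled Nfe2l2, Gclm, Me1 and G6pdx held the element too, as did 9 of 33 matched stress response genes (27.3%). Whether the element goes with the direction of change was not tested. An antioxidant element can overlap an AP-1 motif, since TGAC begins both. Windows with the match in capitals are given for genes that moved in opposite directions with the same element (Chac1 and Nupr1) and for a riser with a match before its start (Txnrd1).
Chac1, chr2:119351033-119351072, plus strand: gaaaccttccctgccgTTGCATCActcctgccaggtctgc
Nupr1, chr7:126625557-126625596, minus strand: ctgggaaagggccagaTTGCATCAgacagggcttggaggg
Txnrd1, chr10:82859098-82859138, plus strand: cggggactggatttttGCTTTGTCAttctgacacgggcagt
The letters of the ATF4 match were identical in Chac1 and Nupr1, and the genes changed by 2.20 and -6.33 on the log2 scale.

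Of 19 tested genes of antigen presentation 3 rose and 1 fell, 21.1% called against 16.5% of all genes, and 10 lay wholly above the Braf lines (17.2% of all genes). Tap2, a chain of the peptide transporter of MHC class I, was at 2.08, 1.59 and 2.7 CPM in Braf lines and 24.1, 34.9 and 13.9 CPM in KO lines (log2 3.51 ± 0.51, adjusted p = 0.0045). The immunoproteasome subunits Psmb9 and Psmb10 rose, Psmb9 from 0.139, 0.154 and 0.102 to 7.99, 2.53 and 3.44 CPM (log2 5.08 ± 1.09, adjusted p = 0.0164) and Psmb10 from 7.95, 6.16 and 8.11 to 18.7, 17.9 and 25.9 CPM (log2 1.49 ± 0.41, adjusted p = 0.0364). Tapbpl (TAPBPR), a peptide editor, fell from 21, 18.3 and 19.9 to 7.52, 6.53 and 7.95 CPM (log2 -1.43 ± 0.21, adjusted p = 0.00451). The class I chains were not called, with H2-K1 at 219, 74.9 and 133 CPM in Braf lines and 212, 216 and 69.2 CPM in KO lines (log2 0.22 ± 0.67, adjusted p = 0.845) and B2m at 232, 136 and 405 CPM in Braf lines and 226, 181 and 249 CPM in KO lines (log2 -0.24 ± 0.52, adjusted p = 0.787). Of 33 interferon and innate genes 3 fell and 1 rose, 12.1% called against 16.5% of all genes. Tmem173 (STING), the adaptor that senses cyclic dinucleotides, was at 76, 45.7 and 161 CPM in Braf lines and 0, 1.07 and 0 CPM in KO lines (log2 -8.06 ± 1.27, adjusted p = 0.00609). Irf8 fell from 29.2, 1.69 and 8.77 to 0.14, 0.292 and 0 CPM (log2 -6.49 ± 1.21, adjusted p = 0.0102). Of 26 cytokine genes 6 fell and 1 rose (26.9% called). Tnfrsf1b (TNF receptor 2) was at 33.5, 14.8 and 111 CPM in Braf lines and 0.607, 1.36 and 0.383 CPM in KO lines (log2 -6.08 ± 1.08, adjusted p = 0.00892), and Il1rn (IL-1 receptor antagonist) and Osmr fell with log2 differences of -6.38 ± 1.47 and -5.15 ± 1.18. Cxcl2, a neutrophil chemokine, was the riser, at 0.832, 3.34 and 1.12 CPM in Braf lines and 41.6, 5.55 and 79.3 CPM in KO lines (log2 4.58 ± 1.24, adjusted p = 0.0348). The cytokine falls numbered 2 without BS53736, 2 without BS53965 and 3 without B47275, and the antigen presentation rises 1 without B47275. Among fits without 1 Braf line, calls were lost for Psmb9 (without B47275), Psmb10 (without B47275, B48051 or B52482) and Cxcl2 (without B47275 or B52482). When a KO line was left out, calls were lost for Psmb10 (without BS53736, BS53958 or BS53965), Il1rn and Cxcl2 (without BS53736 or BS53965) and Osmr (without BS53736), with a highest adjusted p of 0.103. Tmem173 had a log2 difference of -14.00 without BS53958.

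Of 34 glycolysis and hypoxia genes 6 fell and none rose, 17.6% against 9.78% of all genes called lower and 16.5% in either direction. Hk2 (hexokinase 2), the first step of glycolysis, was at 232, 287 and 116 CPM in Braf lines and 15.2, 32.3 and 23.1 CPM in KO lines (log2 -3.17 ± 0.40, adjusted p = 0.00242). The hypoxia targets Ndrg1 and Vegfa fell, Ndrg1 from 70.5, 54.4 and 307 to 1.49, 5.84 and 0.17 CPM (log2 -5.85 ± 1.15, adjusted p = 0.0121) and Vegfa from 188, 129 and 389 to 71.2, 53.5 and 86.9 CPM (log2 -1.74 ± 0.43, adjusted p = 0.0256). The glucose transporter Slc2a1 and Ldha overlapped, at 143, 110.5 and 211 CPM in Braf lines and 139.6, 92.8 and 165 CPM in KO lines and at 1381, 1152 and 1158 CPM in Braf lines and 676, 1383 and 987 CPM in KO lines (adjusted p = 0.682 and 0.529). Of 37 sterol and fatty acid genes 4 fell, near the 9.78% of all genes, and the number was 13 without B52482, 2 without B48051, 1 without BS53965 and 0 without B47275 or BS53958. In retinoic acid metabolism 4 of 16 fell and 2 rose (37.5% called). Rdh10, which starts retinoic acid synthesis, was at 166, 300.4 and 325 CPM in Braf lines and 18.7, 13.5 and 14.5 CPM in KO lines (log2 -4.08 ± 0.61, adjusted p = 0.00452), and Stra6, the importer of retinol, fell from 18.2, 53 and 24.4 to 0, 0.487 and 0 CPM (log2 -7.62 ± 1.28, adjusted p = 0.0073). The binding protein Crabp1 rose from 0.139, 0.257 and 6.12 to 1482, 1382 and 175 CPM (log2 8.87 ± 2.21, adjusted p = 0.0262). The receptors moved in opposite directions, Rara with a log2 difference of -0.99 ± 0.18 and Rarg with 0.82 ± 0.18. The hypoxia count was 3 without BS53736, and the retinoid rises numbered 0 without B47275 or BS53736 and 1 without B48051. Removal of a single Braf line ended the call of Vegfa (without B52482), Crabp1 (without B47275 or B48051) and Rarg (without B47275). Dropping a single KO line ended that of Vegfa (without BS53736, BS53958 or BS53965) and Crabp1 and Rarg (without BS53736), with a highest adjusted p of 0.0724. Vegfa had a log2 difference of -1.13 without B52482 and Stra6 had a log2 difference of -12.44 without BS53958.

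Of 85 tested developmental transcription factors 15 fell and 6 rose, against 9.78% and 6.73% of all genes, and the limma fit called 10 lower and 8 higher. Runx1 was at 237, 206 and 267 CPM in Braf lines and 88.2, 128 and 103 CPM in KO lines (log2 -1.15 ± 0.16, adjusted p = 0.00398), and Sox13 at 47.9, 82.4 and 46.8 CPM in Braf lines and 1.17, 3.8 and 6.63 CPM in KO lines (log2 -3.93 ± 0.70, adjusted p = 0.00873). Irx1 fell from 4.71, 19.5 and 45.8 to 0.234, 0.243 and 0.085 CPM (log2 -6.93 ± 1.07, adjusted p = 0.00545), Msx2 from 14.6, 9.81 and 3.11 to 0.0467, 0.195 and 0.17 CPM (log2 -6.01 ± 1.20, adjusted p = 0.013), and Six4, a homeobox factor, had a log2 difference of -1.93 ± 0.37. Of 24 Hox genes 3 fell and none rose. The risers were led by Tbx20, a T-box factor of the developing heart, which was at 0, 0.0514 and 0 CPM in Braf lines and 127, 95.5 and 104 CPM in KO lines (ratio 6606, 95% counting interval 1185 to 260900.0, adjusted p = 0.0154). The Braf lines held 1 Tbx20 count in all, and the 3 KO lines were alike. Gli1, the standard readout of Hedgehog signalling, rose from 0.139, 0.0514 and 0 to 3.55, 4.48 and 16.7 CPM (log2 6.87 ± 1.35, adjusted p = 0.0122), and Hhip, which traps Hedgehog ligands and is another target, fell from 42.9, 0.822 and 475 to 0.14, 0.73 and 0.0425 CPM (log2 -9.16 ± 2.06, adjusted p = 0.0188). Notch3 fell and Notch1 rose, with log2 differences of -5.93 ± 1.27 and 1.31 ± 0.39. Neural genes were also mixed. Nes (nestin), a filament of progenitor cells, was at 743, 409 and 1526 CPM in Braf lines and 2.99, 8.52 and 4.29 CPM in KO lines (log2 -7.40 ± 0.87, adjusted p = 0.00198), while Syt1, the calcium sensor of synaptic vesicles, was at 0.139, 0.205 and 0.255 CPM in Braf lines and 130.2, 33.1 and 23.1 CPM in KO lines (log2 8.25 ± 1.42, adjusted p = 0.00803). Nefl (neurofilament light chain) rose from 0, 0.0514 and 0.918 to 40.7, 179 and 63 CPM (log2 8.18 ± 1.93, adjusted p = 0.0219), and Uchl1 had a log2 difference of 3.88 ± 1.01. Among 24 cadherins and protocadherins 5 fell and 1 rose (25% called), with Pcdh19 at 153, 33.8 and 463 CPM in Braf lines and 1.82, 10.6 and 5.19 CPM in KO lines (log2 -5.20 ± 0.94, adjusted p = 0.00934). The falls numbered 2 without BS53736 and 3 without B48051 or BS53965. The number of developmental factors that fell was 8 without BS53958 and 9 without BS53736, and the number that rose was 1 without B47275, 2 without BS53958 and 3 without B48051, B52482 or BS53736. Fits short of 1 Braf line lost the call of Tbx20 (without B47275) and Notch1, Nefl and Uchl1 (without B47275 or B48051). Fits short of 1 KO line lost that of Hhip and Notch3 (without BS53736 or BS53965) and Notch1 and Uchl1 (without BS53736, BS53958 or BS53965), with a highest adjusted p of 0.126.

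The 25 largest rises among called genes of moderate level, which by rule had no overlap between lines, included secreted, synaptic and complement genes near 0 in the Braf lines. Tnr (tenascin-R), a matrix protein of the nervous system, was at 0, 0.154 and 0 CPM in Braf lines and 209, 11.8 and 56.8 CPM in KO lines (ratio 1869, 95% counting interval 639 to 9065, adjusted p = 0.00329). BS53736 held the most. C1s and C1ra, the serine proteases that start the classical complement cascade, rose from 0.37, 0.103 and 0.306 to 86, 121 and 27 CPM (log2 8.19 ± 1.09, adjusted p = 0.00312) and from 0.554, 0 and 0.255 to 27.6, 55 and 7.02 CPM (log2 6.74 ± 1.52, adjusted p = 0.0186). The neurexophilins Nxph3 and Nxph4, ligands of neurexins, rose together, Nxph3 to 414, 155 and 143 CPM from 0.693, 0.308 and 3.47 CPM (log2 7.31 ± 1.08, adjusted p = 0.00451) and Nxph4 to 44.1, 30 and 27.6 CPM from 0.0462, 0 and 0.357 CPM (log2 7.93 ± 1.20, adjusted p = 0.00492). The synaptotagmin Syt7 joined Syt1, at 2.73, 1.23 and 0.51 CPM in Braf lines and 73.1, 62 and 135 CPM in KO lines (log2 5.90 ± 1.0, adjusted p = 0.00777). Plac1, a gene of the placenta, was at 0.0924, 0.0514 and 0.102 CPM in Braf lines and 9.62, 10.4 and 47 CPM in KO lines (log2 7.99 ± 1.18, adjusted p = 0.00451). Fgf15, a secreted FGF, was at 0, 0.924 and 0 CPM in Braf lines and 17.8, 22.1 and 77.1 CPM in KO lines (log2 6.97 ± 1.54, adjusted p = 0.0177). Evi2a and Evi2b, neighbours inside an intron of Nf1, rose to 52.2, 352 and 54.4 CPM and 6.96, 26 and 6.12 CPM, with log2 differences of 7.04 ± 1.12 and 6.58 ± 1.29, and reads of the host intron could not be told apart from theirs. Some large rises rested mainly on 1 line, as Dner at 0.37, 0.719 and 1.79 CPM in Braf lines and 821, 11.5 and 25.8 CPM in KO lines (log2 8.22 ± 2.0, adjusted p = 0.0238) and Hopx at 0.0924, 0.565 and 0.867 CPM in Braf lines and 1.03, 102 and 2.93 CPM in KO lines (log2 6.12 ± 1.63, adjusted p = 0.0328). Called under every alternative were Tnr, Wif1, Syt1, C1s, Plac1, Nxph4, Nxph3, Asb5, Evi2b, Chst10 and Syt7. Asb5, of an ankyrin repeat family, and Chst10, a sulfotransferase, had log2 differences of 7.22 ± 1.29 and 5.96 ± 0.96. Without 1 of the Braf lines the test no longer passed for Dner (without B47275 or B48051) and Hopx (without B47275, B48051 or B52482). For the KO lines the same was true of Fgf15 (without BS53965), Dner (without BS53736) and Hopx (without BS53958), with a highest adjusted p of 0.125. Fgf15 had a log2 difference of 12.75 without B48051, Dner had a log2 difference of 4.28 without BS53736 and Hopx had a log2 difference of 1.96 without BS53958.

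The 25 largest falls ended at or near 0 in the KO lines, while the Braf lines often differed among themselves. Gpr64 (Adgrg2), an adhesion receptor, was at 144, 8.42 and 84.9 CPM in Braf lines and 0, 0.0487 and 0 CPM in KO lines (ratio 5343, 95% counting interval 958 to 211100.0, adjusted p = 0.00902). Aqp1, a water channel, was at 11.6, 5.75 and 267 CPM in Braf lines and 0.187, 0.0487 and 0.0425 CPM in KO lines (log2 -9.92 ± 1.79, adjusted p = 0.00917). In both genes the lowest Braf line was B48051. Xdh (xanthine dehydrogenase), which makes uric acid, fell from 89.3, 40.6 and 143 to 0, 0.487 and 0.0425 CPM (log2 -9.01 ± 1.26, adjusted p = 0.00373). Gdf6, a BMP ligand, fell from 6.38, 2 and 45.1 to 0, 0.0487 and 0 CPM (ratio 1144, 95% counting interval 205 to 45220.0, adjusted p = 0.0106). The metalloproteases Adam19 and Adamts12 fell to 0.187 CPM or less in each KO line, Adam19 from 15.4, 0.565 and 196 CPM (log2 -9.50 ± 2.15, adjusted p = 0.019) and Adamts12 from 25.6, 0.103 and 52.7 CPM (at least 571-fold lower, adjusted p = 0.04). Chst13, a sulfotransferase of chondroitin chains, had no count in any KO line against 4.81, 1.34 and 7.24 CPM (at least 97.7-fold lower, adjusted p = 0.0177). Gap43, a growth cone protein, was high in B48051 alone, at 0.231, 64.8 and 0.255 CPM in Braf lines and 0.0467, 0.0487 and 0 CPM in KO lines (ratio 686, 95% counting interval 189 to 5668, adjusted p = 0.0494). The model's log2 value for Gap43 was -9.21 with all lines and -2.76 without B48051. Chst13, Flnc, Fam49a and Xdh were the 4 of these 25 called under every alternative. With 1 Braf line left out, a call was lost for Adamts12 (without B47275 or B52482) and Gap43 (without B48051). Where a KO line was left out, it was lost for Adam19, Adamts12 and Gap43 (without BS53736, BS53958 or BS53965), with a highest adjusted p of 0.304. Aqp1 had a log2 difference of -6.44 without B52482 and Adam19 had a log2 difference of -6.32 without B52482.

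**Figure D5:**
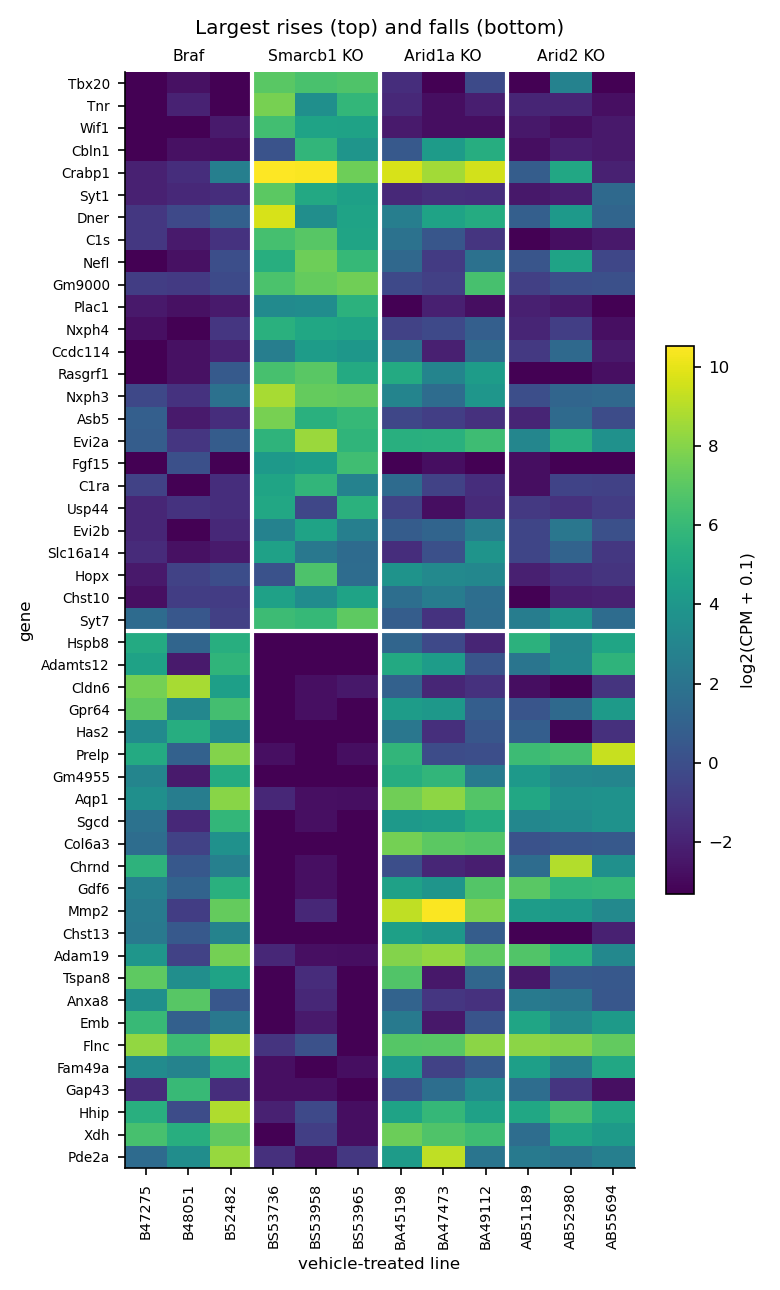
Heat map of log2(CPM + 0.1) for the largest rises (upper block) and largest falls (lower block) that are reported here, in the 12 vehicle-treated lines, grouped by genotype, from dark (low) to yellow (high). The falls are dark in all 3 Smarcb1 KO lines and uneven among the 3 Braf lines, and several rises, such as Crabp1, are also bright in Arid1a KO lines.

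The smallest p-values went to genes with tight replicates. On the side of the rises, the protein phosphatase Ppm1l, which turns down stress kinases, was at 37.9, 28.7 and 28.4 CPM in Braf lines and 198, 405 and 339 CPM in KO lines (log2 3.31 ± 0.29, adjusted p = 0.00121). Nlgn3 (neuroligin 3), a synaptic adhesion protein, was at 0.554, 0.924 and 0.51 CPM in Braf lines and 40.9, 15.4 and 26 CPM in KO lines (log2 5.36 ± 0.48, adjusted p = 0.00121). Arhgef7 (beta-PIX), an exchange factor for Rac and Cdc42, was at 72.1, 122 and 124 CPM in Braf lines and 547, 438 and 593 CPM in KO lines (log2 2.31 ± 0.22, adjusted p = 0.00121), and the coactivator Ncoa3 at 43.6, 55.8 and 48.2 CPM in Braf lines and 349.6, 204 and 403 CPM in KO lines (log2 2.70 ± 0.31, adjusted p = 0.00192). The unnamed gene model Gm13456 had the smallest of all, at 11.1, 11.6 and 10 CPM in Braf lines and 118, 165 and 242 CPM in KO lines (log2 4.0 ± 0.26, adjusted p = 0.000366). On the other side, Irs1, the docking protein of the insulin and IGF1 receptors, was at 88.2, 95.4 and 109.7 CPM in Braf lines and 2.29, 3.12 and 0.723 CPM in KO lines (log2 -5.58 ± 0.51, adjusted p = 0.00121). Steap2, a metalloreductase, was at 152, 115 and 122 CPM in Braf lines and 3.6, 1.9 and 1.45 CPM in KO lines (log2 -5.81 ± 0.53, adjusted p = 0.00121), and Fads3, of the fatty acid desaturase cluster, at 231, 123 and 240.1 CPM in Braf lines and 16.4, 19 and 13 CPM in KO lines (log2 -3.62 ± 0.29, adjusted p = 0.00103). Pik3c2a, a lipid kinase of membrane traffic, fell from 216, 257 and 206 to 51, 33.3 and 54.6 CPM (log2 -2.29 ± 0.21, adjusted p = 0.00121). All 20 genes of these smallest p-values were called under every alternative.

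Smarcb1 KO lines also differed from the lines that had lost another SWI/SNF subunit. Against Arid1a KO 1733 of 14317 genes (12.1%) were called, 760 (5.31%) higher and 973 (6.8%) lower in Smarcb1 KO. Against Arid2 KO the number was 1291 (9.02%), 521 (3.64%) higher and 770 (5.38%) lower. The calls against Arid1a KO numbered 753 without BA45198, 767 without BA47473, 995 without BS53736 and 932 without BS53965. Those against Arid2 KO numbered 676 without AB51189, 530 without AB52980, 516 without AB55694, 729 without BS53736 and 570 without BS53965. These contrasts are the tests of whether the knockouts' changes from Braf differ, since the shared Braf lines drop out. A set of 679 genes, 257 higher and 422 lower, was called in the same direction against Braf, Arid1a KO and Arid2 KO alike. Wif1 was in it, at 0.103, 0.044 and 0.0428 CPM in the Arid1a KO lines and 0.0873, 0.0419 and 0.0915 CPM in the Arid2 KO lines. Fth1, at 1466, 1134 and 1699.5 CPM in Arid1a KO lines and 1736, 1942 and 2057 CPM in Arid2 KO lines, differed from them by 1.95 ± 0.22 (adjusted p = 0.00172) and 1.53 ± 0.21 (adjusted p = 0.00496) on the log2 scale. Irs1 was at 96.3, 126 and 163 CPM in Arid1a KO and 95, 77.1 and 140.2 CPM in Arid2 KO lines, and the log2 differences of Smarcb1 KO from them were -5.97 ± 0.52 (adjusted p = 0.0008) and -5.67 ± 0.52 (adjusted p = 0.00156). For Slit2 the log2 difference was -3.86 ± 0.41 (adjusted p = 0.00142) from Arid1a KO and -5.57 ± 0.44 (adjusted p = 0.000845) from Arid2 KO. Of the replication genes, 9 of 20 were called against Arid1a KO and 6 of 20 against Arid2 KO, with Cdt1 at 1.76 ± 0.31 (adjusted p = 0.00906) and 1.27 ± 0.31 (adjusted p = 0.0349).

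Of the 2364 calls against Braf, 969 passed against neither of the other knockouts, which does not show that the genotypes are alike there. Crabp1 was at 830.2, 398 and 777 CPM in the Arid1a KO lines, and the difference from Smarcb1 KO did not pass, at 0.60 ± 1.57 (adjusted p = 0.837). Cbln1, a synaptic organiser, was at 1.38, 19.3 and 38.9 CPM in Arid1a KO lines, with a difference of 0.26 ± 1.20 (adjusted p = 0.909). Hk2 was at 30.6, 43.4 and 38.6 CPM in Arid1a KO lines, with a difference of -0.67 ± 0.37 (adjusted p = 0.254), and it differed from Arid2 KO by -2.28 ± 0.38 (adjusted p = 0.00991). Of the epithelial genes 2 of 50 were called against Arid1a KO and 1 of 50 against Arid2 KO, where 12.1% and 9.02% of all genes were called. Fst, lower in Smarcb1 KO than in Braf, was at 1.49, 0.66 and 0.855 CPM in Arid1a KO lines and did not differ there by the test, at 2.23 ± 0.68 (adjusted p = 0.0606).

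The same 6 lines under CKI were measured in other libraries, so they repeat the measurement on the same lines and add no new lines. Smarcb1 KO against Braf under CKI gave 2270 calls of 14709 tested (15.4%), 810 (5.51%) higher and 1460 (9.93%) lower, and 919 calls without B47275 or 1141 without BS53965. The CKI libraries of BS53958 (11684983 counts) and BS53965 (2884130 counts) were shallower than any vehicle library of these 6 lines. Smarcb1 stood at 99.2, 70.5 and 73.1 CPM in Braf and 0.124, 1.48 and 3.38 CPM in Smarcb1 KO lines under CKI, a difference of -5.95 ± 0.81 (adjusted p = 0.00355). Gains that were present under both treatments included Ncoa3, at 2.92 ± 0.19 (adjusted p = 0.000265), and Cdt1, at 3.07 ± 0.53 (adjusted p = 0.00815). Spry4 was at 3.84, 2.36 and 9.99 and 208, 181 and 141 CPM under CKI and differed by 5.03 ± 0.60 (adjusted p = 0.00213). Dusp10, higher under vehicle, was at 20.6, 29.2 and 41.6 CPM in Braf and 52.5, 7.67 and 26.8 CPM in Smarcb1 KO lines under CKI, with a difference of -0.07 ± 0.56 (adjusted p = 0.945). Ppp1r15a and Atf4, higher under vehicle, differed by 0.00 ± 0.47 (adjusted p = 1) and 0.31 ± 0.25 (adjusted p = 0.419) under CKI. Whether the KO effect differs between the treatments was not tested.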

How the data were processed

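RNA was extracted with TRIzol and made into TruSeq libraries, per the labels' protocols. The authors deposited raw read counts per gene for 33924 genes. Per the submitters' processing notes, STAR 2.4, HTSeq 0.6.1, DESeq2 and build mm9 were used. No source used here gives the annotation or whether counting used strand, so overlapping and antisense genes may share reads. Groups came from the labels.

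edgeR 4.0.16 (R 4.3.3) was fitted to the 12 vehicle libraries with 1 mean per genotype, TMM scaling and filterByExpr, which left 14317 genes. Contrasts used the quasi-likelihood F test with Benjamini-Hochberg adjustment, and every adjusted p comes from that test unless another tool is named. Each SE is approximate, the log2 difference divided by the square root of F. The 12 CKI libraries had their own fit. The script was tested on simulated data.

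Named were the SWI/SNF subunits, the 25 largest rises and falls (average log2 CPM of at least 2, no overlap), the 10 smallest p in each direction, and up to 8 called members per list by adjusted p, beside members that did not pass. A few genes that the rule covers are not reported here. The lists (42, with 995 tested genes), members and motifs were chosen with earlier results of these data known. Alternatives were RLE factors, 2 other filters, 6 or 24 libraries, DESeq2 1.42.0, limma 3.58.1 voom with the line as a random effect, and leaving out each line. Promoter sequences are RefSeq's (GRCm38.p6), matched by symbol because the counts used mm9. Figures add 0.1 CPM before the log2.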

Additional observations from a re-analysis of the deposited data

Results flagged for a closer look

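The effects of knocking out different SWI/SNF subunits differed by test. Between Smarcb1 KO and Arid1a KO lines 1733 genes passed edgeR's quasi-likelihood test at an adjusted p under 0.05, and between Smarcb1 KO and Arid2 KO lines 1291 did. The 3 lines behind each group are 1 vehicle library each.

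Against Braf, 165 of 14317 genes (1.15%) were called in Arid1a KO and 0 in Arid2 KO. Of 87 genes called against Braf in both Smarcb1 KO and Arid1a KO, 4 were called in opposite directions. These 4 were lower in Smarcb1 KO and higher in Arid1a KO, and the difference between the knockouts passed for each. Cacna1a, a calcium channel chain, was at 2.82, 5.24 and 3.83 CPM in the Braf lines, 1.64, 1.41 and 0.723 CPM in the Smarcb1 KO lines and 50.9, 64.4 and 103 CPM in the Arid1a KO lines, and Smarcb1 KO minus Arid1a KO was -5.85 ± 0.46 (adjusted p = 0.000518) on the log2 scale. Scara3, a scavenger receptor family member, was at 1.85, 0.308 and 1.53 CPM in the Braf lines, 0, 0 and 0.0425 CPM in the Smarcb1 KO lines and 152, 37.3 and 56.5 CPM in the Arid1a KO lines. Ermp1 and Rassf8 had differences between the knockouts of -4.52 ± 0.48 (adjusted p = 0.00147) and -3.36 ± 0.30 (adjusted p = 0.000854). Both effects are measured against the same 3 Braf lines.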

How the results depend on the processing

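Of the 2364 genes called between Smarcb1 KO and Braf, none had the opposite sign under any alternative run, and 472 were called in all 14 fits. RLE factors gave 2362 calls, 1 CPM in 3 libraries 2277, voom 2212, no filter 1796 and all 24 libraries 2837. The 6 libraries alone gave 785, 297 higher and 488 lower, and DESeq2 gave 3902, 1476 higher and 2426 lower. Leaving out 1 line gave 1171 to 2085 calls, 424 to 779 higher and 659 to 1306 lower. Against Arid1a KO, DESeq2 called 3252 genes and leaving out 1 line gave 753 to 1339. Against Arid2 KO these were 2859 and 516 to 926. Under CKI, leaving out 1 line gave 919 to 1873 calls. Fits without 1 line or with 6 libraries hold fewer samples, and the cause of the other shifts was not tested. Of 252 named genes called, 132 of 242 fitted kept their call with the 6 libraries and 168 of 252 with voom, whose correlation within a line was 0.486. No paired analysis was possible because the 2 genotypes are different lines, whose numbering pairs nothing. With 3 lines per group no test for an outlying line was made, and genes near 0 counts in a group have ratios with wide counting intervals.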
